A study of Mus musculus with 19 samples.

Results

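The change between day 14 and day 21 was followed in cells sorted from tumors of lean mice. The comparison rests on 8 of the study's 19 libraries, chosen by their labels: 4 from day 14, called midpoint, and 4 from day 21, called endpoint. All 8 come from c57bl6 mice named for a chow diet, in which mCherry-positive E0771 cells, an established mouse mammary carcinoma line, had been implanted into mammary fat. Cells of the dissociated tumors were sorted on mCherry before RNA extraction, so a cell of the host enters a library only if it passed that gate. A ninth lean library, endpoint replicate 4, was left out because its 11889188 counts stop on chromosome 5. The 8 libraries held 48149757 to 56996252 counts. The age of the animals, and which animal each library came from, is not stated in the sources used here, so p-values measure the spread between these libraries. The 10 obese libraries of the study, from animals named for a high-fat diet, entered the fit for the estimate of the spread and are shown beside the lean values.

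Between these days an orthotopic tumor keeps enlarging, and its cells meet changing supplies of oxygen and nutrients, matrix, and immune signals. Cancer cells answer such conditions through well-known programs: heat shock proteins refold damaged proteins, Trp53 targets slow the cycle or repair DNA, and interferon raises antigen presentation. Class I molecules present peptides on nearly all cells, and class II molecules do so mainly on professional antigen-presenting cells. Collagens and small proteoglycans build the matrix around tumor cells and fibroblasts.

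At day 21, 6 of 7 class II antigen presentation genes and 9 of 18 collagens were lower in cells sorted from lean tumors. Of 31 chromatin regulators with long transcripts, 23 were higher. With an adjustment for GC content these counts were 3, 4 and 19. Of all genes tested, 9.5% were lower and 21.4% higher, and 8.85% and 15.4% with the adjustment. The lists were chosen with earlier results of these data known. Which of the sorted cells carried the class II change was not tested. Dcn, the small proteoglycan decorin, rose from 1.03 ± 0.612 CPM (SD, n = 4) to 16.02 ± 7.83 CPM (SD, n = 4). CPM are counts scaled to the TMM-adjusted library size, so they are not shares of all counts. Ereg, the growth factor epiregulin, which activates the epidermal growth factor receptor, rose from 44.1 to 399 CPM. H2-Aa, a chain of the class II molecule, fell from 23.9 to 6.02 CPM, and Col1a1, a chain of type I collagen, from 6.10 to 0.952 CPM.

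The quasi-likelihood test of edgeR, with p-values adjusted by the Benjamini-Hochberg method and called at 0.05, found that 5053 of 16352 genes tested differed between the days, or 30.9%. Of these, 3499 were higher at day 21 (21.4% of genes tested) and 1554 were lower (9.5%). The median log2 fold change of all genes tested was 0.04. With an adjustment for the trend of expression with GC content in each library, 3917 of 16122 genes with a GC value differed (24.3%), 2490 higher (15.4%) and 1427 lower (8.85%). The counts of list members below are to be read beside these shares of all genes. Both fits called 2111 genes higher (13.1%) and 625 lower (3.88%). A further 2269 genes were called only without the adjustment and 1180 only with it. The genes of largest change named below were called in both fits, while members of lists are named also where the fit without the adjustment alone called them. The counts moved with single libraries: without lean midpoint replicate 1 the test called 3251 genes, 782 of them lower, and with the GC adjustment 2549, 832 lower. The number of lower genes was 592 without endpoint replicate 3, 717 without midpoint replicate 4, 918 without endpoint replicate 5 and 2669 without endpoint replicate 2. With the GC adjustment, leaving out endpoint replicate 3 gave 2523 genes, 686 lower, and leaving out midpoint replicate 4 gave 913 lower. With all 19 libraries, the left-out one included, 530 genes were called.

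The libraries of the days differed in how expression followed the GC content of genes. The slope of log2 CPM on GC content, per 10 percentage points, was 0.443, 0.106, 0.120 and 0.365 in the day 14 libraries and -0.874, -0.0643, -0.635 and -0.677 in the day 21 libraries. Every day 14 slope was positive and every day 21 slope negative, with endpoint replicate 2 nearest to day 14. The difference was -0.821 (exact permutation test, two-sided, p = 0.0286, the lowest value open to 70 splits, and 0.0857 adjusted over 9 measures). Of the 945 genes under 40% GC, 61.7% were called higher and 0.423% lower, whereas of the 3549 genes at 55% GC or more, 1.52% were called higher and 17.1% lower. With the adjustment these shares were 24.1% and 10.4% of the GC-poor genes, and 7.75% and 3.16% of the GC-rich genes. Higher genes called in both fits had a median GC content of 45.35% and a median gene length of 5096 bases. Lower genes had 50.8% and 2383 bases, and all tested genes 49.85% and 3092 bases. The day and the GC trend move together, so how far the trend enters an unadjusted fold change cannot be told apart from the change over time, and the adjustment also removes any change that follows GC content.

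**Figure D1:**
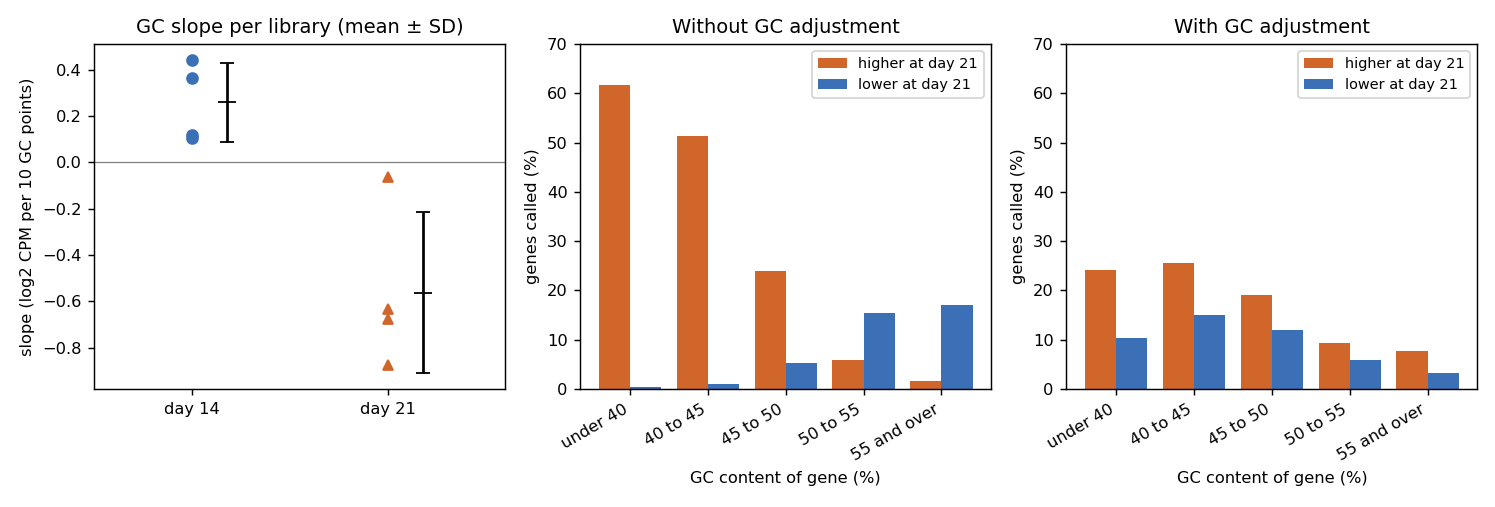
The left panel plots the slope of log2 CPM on GC content per 10 percentage points in each lean library, with points for libraries and bars for the mean ± SD of 4. The other panels show the percentage of genes called higher (orange) or lower (blue) at day 21 in 5 classes of GC content, without and with the GC adjustment. The slopes lie between 0.106 and 0.443 at day 14 and between -0.874 and -0.0643 at day 21, and the share of higher genes under 40% GC is 61.7% without and 24.1% with the adjustment.

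Transcripts of the mitochondrial genome, which encode the ribosomal RNAs and part of the respiratory chain of mitochondria, took a larger share of counts at day 21. The share was 9.84%, 10.5%, 12.3% and 8.95% at day 14 and 44.7%, 17.1%, 23.2% and 20.7% at day 21, with no overlap. The means were 10.4% ± 1.41 (SD, n = 4) and 26.4% ± 12.4 (SD, n = 4), and the exact permutation test, two-sided, gave p = 0.0286 and 0.0857 adjusted over 9 measures. Endpoint replicate 1 stood apart: mt-Rnr1, the small ribosomal RNA, measured 460300 CPM there and 29510 to 45550 CPM in the other day 21 libraries. CPM use the TMM-adjusted library size, so they are not parts of the 44.7% share of that library. Without that library the difference in share was 9.92 percentage points in place of 16.01, and the log2 fold change of mt-Rnr1 was 0.82 in place of 2.78. Of the 14 mitochondrial genes tested, 10 were called higher and 0 lower without the GC adjustment, and 1 higher with it. That gene, mt-Rnr2, the large ribosomal RNA, measured 42620 to 49260 CPM at day 14 and 99120 to 200900 CPM at day 21, and its log2 fold change was 1.71 ± 0.21 (SE) without and 0.49 with the adjustment. Of the 10 called without the adjustment, mt-Co2, mt-Co3 and mt-Atp6 had low counts, averaging 0.741, 0.443 and 0.559 CPM at day 14. At day 21 they averaged 2.66, 1.23 and 1.93 CPM. By contrast, mt-Co1 averaged 13720 CPM at day 14 and 26590 CPM at day 21. What part the mitochondrial share had in the other fold changes was not tested on its own. Without the mitochondrial genes and the structural RNA genes together, 5331 of 16066 genes were called.

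Marker genes were read next, because the gate sets which cells are present. Of 6 epithelial markers, 1 could be tested and Krt7 was at 0 in every lean library. Their summed level was 22.4 to 39.1 CPM at day 14 and 21.0 to 31.1 CPM at day 21, so the defining keratins of an epithelial line were scarce on both days. All 9 pan-leukocyte markers were detected, with summed levels of 1008 to 1210 CPM at day 14 and 583 to 1082 CPM at day 21. Of them 5 fell and 0 rose by the edgeR test, 3 and 0 with the GC adjustment, and 1 fell in both fits. The sums overlapped, and their difference had p = 0.114 (exact permutation test, two-sided, 0.171 adjusted over 9 measures). The 18 macrophage and monocyte markers summed to 298 to 647 CPM at day 14 and 293 to 467 CPM at day 21, and 3 fell and 1 rose. The gene that rose was Mrc1, the mannose receptor, by 2.01 on the log2 scale, and it did not pass with the GC adjustment (1.15). The 7 dendritic cell markers summed to 30.2 to 33.2 CPM and 26.2 to 35.8 CPM, and 1 fell and 1 rose, against 2 and 0 with the adjustment. The 10 endothelial markers summed to 21.2 to 24.2 CPM at day 14 and 13.01 to 15.2 CPM at day 21, without overlap (exact permutation test, two-sided, p = 0.0286, and 0.0857 adjusted over 9 measures). Of 7 endothelial markers tested, 2 fell and 0 rose, and with the GC adjustment 1 fell and 1 rose. The 10 mammary lineage markers summed to 29.3 to 43.8 CPM at day 14 and 21.2 to 26.8 CPM at day 21, also without overlap, but of 4 tested 1 rose, the estrogen receptor Esr1 by 1.15, and 1 fell, the receptor kinase Erbb2 by 0.76. Neither passed with the GC adjustment. Erbb2 made up most of the mammary sum, at means of 34.3 CPM at day 14 and 20.3 CPM at day 21. The median log2 fold change of the mammary genes tested was 0.50, and 0.23 with the adjustment. The 13 fibroblast markers summed to 2342 to 2698 CPM and 1791 to 2893 CPM. In sorted bulk samples, fewer cells of a type and less RNA per cell cannot be told apart.

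**Figure D2:**
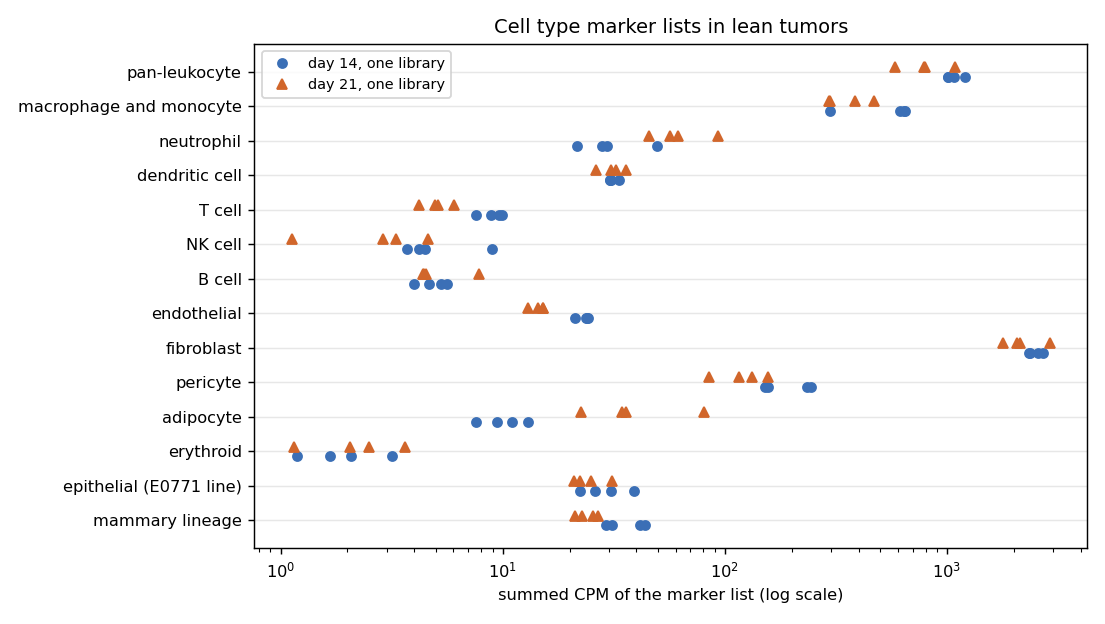
Each row is a list of cell type markers and each point its summed CPM in a lean library on a log scale, with circles for day 14 and triangles for day 21. T cell, endothelial and mammary lineage markers sit lower at day 21 without overlap, the mammary sum being mostly Erbb2. Adipocyte markers sit higher, and the fibroblast and erythroid lists overlap.

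The 10 T cell markers summed to 7.61 to 9.93 CPM at day 14 and 4.22 to 6.02 CPM at day 21, and 4 were called lower and 1 higher, 5 and 0 with the GC adjustment. Cd3g, a chain of the T cell receptor complex, measured 0.437, 0.463, 0.735 and 0.529 CPM at day 14 and 0.0631, 0.0751, 0.0807 and 0.234 CPM at day 21. Its day 21 values lay below all day 14 values, at a log2 fold change of -2.20 ± 0.62 (SE, edgeR adjusted p = 0.0119) and -3.35 with the GC adjustment. Cd4, the helper T cell coreceptor that some myeloid cells also carry, fell by 1.82 and Lck, the kinase of the T cell receptor, by 1.15 on the log2 scale. Cd28, a costimulatory receptor, moved the other way, by 2.08, and did not pass with the adjustment (1.20). The adipocyte list summed to 7.59 to 12.98 CPM at day 14 and 22.5 to 80.6 CPM at day 21. Of its 4 genes tested, 1 rose and 1 fell, with a median of -0.10, and with the GC adjustment 1 rose and 0 fell. Plin1, which coats lipid droplets, was the one that fell: it averaged 0.0976 CPM at day 14, was at 0 in every day 21 library, and did not pass with the adjustment. Fabp4, a fatty acid carrier of adipocytes and macrophages, made up most of that sum and measured 8.01, 5.34, 9.55 and 5.86 CPM, then 32.0, 32.7, 79.3 and 18.9 CPM. It rose by 2.50 ± 0.39 (SE) on the log2 scale (edgeR adjusted p = 0.00026), and by 1.63 with the GC adjustment.

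Class II antigen presentation was the list with the lowest median among the 30 gene lists of processes, at -1.71 against 0.04 for all genes tested and at -1.16 with the GC adjustment. Of its 7 genes, 6 fell without the adjustment and 3 with it, where 9.5% and 8.85% of all genes did. H2-Aa measured 25.2, 26.0, 26.3 and 18.1 CPM at day 14 and 4.89, 5.05, 1.25 and 12.9 CPM at day 21. Endpoint replicate 3 was lowest and replicate 5 nearest to day 14, and the days did not overlap. The log2 fold change was -1.99 ± 0.49 (SE) by edgeR, adjusted p = 0.00544, and -2.35 with the GC adjustment.

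Cd74, the invariant chain that guides class II molecules to the compartment where they take up peptides, measured 70.03, 64.1, 74.9 and 51.8 CPM at day 14. At day 21 it measured 12.7, 15.9, 4.92 and 36.1 CPM, with the same libraries lowest and highest as for H2-Aa. It fell by 1.91 ± 0.46 (SE, edgeR adjusted p = 0.00427), and with GC and length both adjusted, at -1.33, it no longer passed. H2-Eb1, another class II chain, fell by 1.73 ± 0.51 (SE) and H2-Ab1, the partner of H2-Aa, by 1.71 ± 0.45 (SE). H2-Ab1 was at -1.16 with the GC adjustment, where it did not pass. Ciita, the coactivator that class II genes depend on, measured 1.32 CPM at day 14 and 1.20 CPM at day 21 and was not called (-0.14 ± 0.48, SE). Beside this list stand the T cell markers, whose sums were lower at day 21 without overlap, and the pan-leukocyte markers, whose sums overlapped. Even so, 5 of the 9 pan-leukocyte markers fell. Their list had a median log2 fold change of -1.20, and -0.92 with the GC adjustment. Ly6c2, a monocyte surface protein, measured 32.0, 32.4, 37.9 and 27.2 CPM and then 10.97, 8.44, 1.78 and 11.2 CPM. Itgax, an integrin of dendritic cells and macrophages, fell by 1.59 ± 0.43 (SE) on the log2 scale, whereas Clec9a, another dendritic cell marker, rose by 1.73 and did not pass with the GC adjustment (0.98). The part of such cells in the class II values was not tested.

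Class II genes share promoter elements, and the letters upstream of these genes are shown because the genes moved together. RefSeq promoters (GRCm38.p6) were given for 4 of the 7 genes, with 5 start sites, and 3 of the genes held GATTGG within the 120 bases before a start site. GATTGG, searched on both strands (its reverse complement is CCAATC), contains the inverted CCAAT letters known as the Y box of class II promoters. It is in capitals below, and it occurs in 9.67% of 32851 promoter windows of this length and in 3 of the 5 class II windows. H2-DMa, whose start sites make up the rest, had no match in these windows. It fell by 1.06 on the log2 scale, and H2-DMb1, which has a match, by 0.77. Neither passed once GC content was adjusted for.
H2-Aa, chr17:34287824-34287943, minus strand: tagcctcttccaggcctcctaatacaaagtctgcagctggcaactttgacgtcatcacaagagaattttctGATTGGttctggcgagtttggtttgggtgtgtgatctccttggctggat
H2-Eb1, chr17:34305747-34305866, plus strand: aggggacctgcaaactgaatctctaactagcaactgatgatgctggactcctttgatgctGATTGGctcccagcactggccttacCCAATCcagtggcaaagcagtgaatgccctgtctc
H2-DMb1, chr17:34153071-34153190, plus strand: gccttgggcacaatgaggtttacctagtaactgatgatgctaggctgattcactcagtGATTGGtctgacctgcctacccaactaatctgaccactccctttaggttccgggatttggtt
The forward match begins 49 bases before the start site in H2-Aa, 60 in H2-Eb1 and 62 in H2-DMb1, and H2-Eb1 has a match on the other strand at 35. A match is a description of these letters, not a bound site.

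Class I presentation, tested on 15 genes, had 6 lower and 1 higher without the GC adjustment, and 1 lower with it. Tap1, a subunit of the peptide transporter, measured 326, 267, 282 and 369 CPM at day 14 and 139, 201, 133 and 221 CPM at day 21. It fell by 0.84 ± 0.21 (SE, edgeR adjusted p = 0.0061), and was at -0.38 with the adjustment, where it did not pass. Psmb8, an immunoproteasome subunit, fell in both fits, by 0.93 ± 0.24 (SE) and by 0.69. Of 33 interferon-stimulated genes, 9 fell (27.3%) and 7 rose (21.2%) without the adjustment, where 9.5% and 21.4% of all genes did. With it, 8 fell and 1 rose. Usp18, which restrains interferon signaling, measured 210, 255, 179 and 223 CPM at day 14 and 106, 124, 39.0 and 102 CPM at day 21. It fell by 1.23 ± 0.26 (SE, edgeR adjusted p = 0.00165), and Oas3, a sensor of viral RNA, fell by 1.10 ± 0.27 (SE). Eif2ak2, the kinase PKR, and Ifit1, which binds viral RNA, rose by 1.68 and 1.59, and Ifit1 did not pass with the adjustment (0.71). The interferon list thus held genes moving in opposite directions.

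Of 18 collagens, 9 fell and 0 rose without the GC adjustment, and 4 fell and 1 rose with it, at medians of -0.60 and -0.13. Col1a1 measured 6.79, 3.78, 2.48 and 11.4 CPM at day 14 and 0.504, 0.901, 0.726 and 1.68 CPM at day 21. All day 21 values were below all day 14 values, with a log2 fold change of -2.66 ± 0.46 (SE, edgeR adjusted p = 0.000419) and -2.09 with the adjustment. Col1a2, its partner chain, fell by 2.15 ± 0.43 (SE), and Col5a2 by 1.51 ± 0.36 (SE). Col3a1, a fibrillar collagen at 1790 CPM on day 14, was not called (-0.35), nor was Col5a3 (-0.35). Col5a1, a chain of type V collagen that starts fibrils, measured 706, 457, 489 and 701 CPM at day 14 and 172, 349, 242 and 298 CPM at day 21. It fell by 1.15 ± 0.26 (SE). Islr, an immunoglobulin-domain protein known from mesenchymal stromal cells, fell by 1.90 ± 0.48 (SE), and Col6a4, a chain of type VI collagen, by 2.02 ± 0.49 (SE).

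Lum and Dcn, small leucine-rich proteoglycans that bind collagen fibrils, had the largest increases of the 14 named, in the fit without the GC adjustment. By rule the 14 leave out genes with provisional or small RNA names (Gm, Rik, Mir). Of those, 8 rose by more than the smallest of the 14, and Gm24187 (5.98), Gm42418 (5.48) and Mir6236 (4.72) by more than Lum. With the adjustment Lars2, at 4.01, was above both proteoglycans. Lum measured 0.269, 0.0926, 0.337 and 0.265 CPM at day 14 and 6.12, 3.40, 5.77 and 1.87 CPM at day 21. Dcn measured 0.705, 0.370, 1.32 and 1.74 CPM, then 17.9, 14.8, 25.1 and 6.23 CPM. In both genes endpoint replicate 5 was the lowest day 21 library, and it still lay above all day 14 libraries. The log2 fold changes were 4.14 ± 0.68 (SE, edgeR adjusted p = 0.000322) and 3.96 ± 0.59 (SE, adjusted p = 0.000237), and 3.19 and 2.87 with the GC adjustment. Both are also in the fibroblast marker list, in which 4 of 12 genes tested rose and 3 fell, Col1a1 and Col1a2 among those that fell. The part of fibroblasts was not tested.

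Csgalnact2, an enzyme that starts chondroitin sulfate chains, measured 6.48 to 10.5 CPM at day 14 and 31.8 to 101 CPM at day 21, and rose by 2.95 ± 0.42 (SE) on the log2 scale. Extl1, a glycosyltransferase of the exostosin family that builds heparan sulfate, moved the other way, from 4.40, 5.06, 3.41 and 7.78 CPM to 0.504, 0.600, 0.686 and 0.586 CPM. The day 21 libraries of Extl1 lay close together, and its log2 fold change of -3.11 ± 0.39 (SE, edgeR adjusted p = 0.000174) was the largest of the 14 decreases shown. In mm10, Extl1 (ENSMUSG00000028838) lies on chr4 from 134356372 to 134383850. Among 19 metalloproteinases and inhibitors, 7 rose and 4 fell, and 4 rose and 1 fell with the GC adjustment. Adamts1, a secreted protease that cleaves proteoglycans, measured 23.1, 17.2, 30.2 and 21.5 CPM and then 75.2, 49.7, 73.6 and 63.2 CPM. It rose by 1.51 ± 0.21 (SE) without and 1.53 with the GC adjustment. Mmp9, a gelatinase, fell by 1.89 ± 0.38 (SE), and the sheddases Adam9 and Adam10 rose by 1.53 and 2.04.

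Growth and signaling genes were among the largest increases. Ereg measured 42.8, 30.8, 52.8 and 49.9 CPM at day 14 and 413, 135, 710 and 339 CPM at day 21. Endpoint replicate 2 was the lowest at day 21 and endpoint replicate 3 the highest, and the days did not overlap. Its log2 fold change was 3.18 ± 0.42 (SE, edgeR adjusted p = 0.000174), and 1.93 with the GC adjustment. Ereg (ENSMUSG00000029377) lies on chr5 from 91074617 to 91093649 in mm10, and its longest transcript has a GC content of 39.2%.

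Dkk2, a secreted modulator of Wnt signaling, measured 1.88, 1.39, 0.934 and 3.53 CPM at day 14 and 23.8, 18.9, 17.5 and 20.6 CPM at day 21. Its day 21 values lay close together, and it rose by 3.39 ± 0.43 (SE, edgeR adjusted p = 0.000174), and by 2.87 with the adjustment. Calcrl, a receptor for adrenomedullin, rose by 3.02 ± 0.67 (SE) and Prkar2b, a regulatory subunit of protein kinase A, by 3.00 ± 0.39 (SE). In the left-out library, with CPM taken over its complete chromosomes 1 to 4 alone, Dkk2 measured 127, against 5.00 to 18.2 at day 14 and 85.1 to 101.5 in the other day 21 libraries. There Extl1 measured 3.48, against 18.3 to 40.2 at day 14 and 2.15 to 3.34 in the other day 21 libraries. Both values of the library that the fit did not use lay on the day 21 side. Sh3bp4, an endocytic adaptor, measured 13.9 there, against 16.3 to 24.9 at day 14 and 3.09 to 7.42 in the other day 21 libraries.

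**Figure D3:**
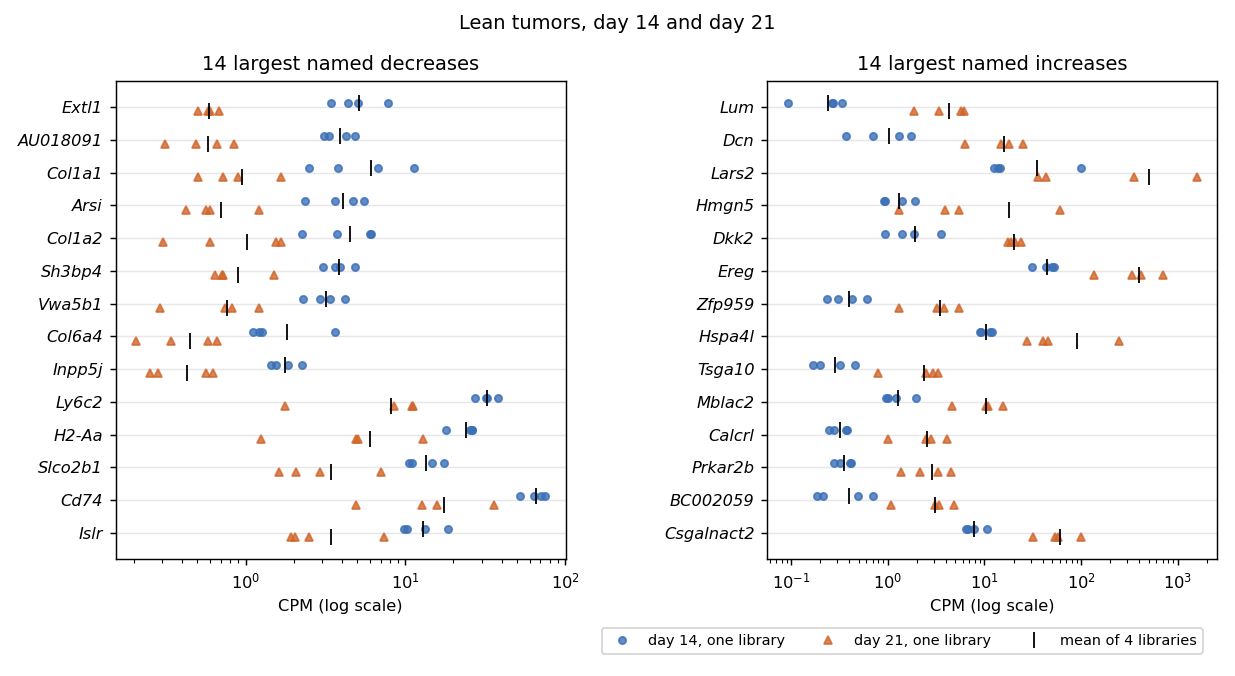
CPM of the 14 largest decreases (left) and 14 largest increases (right) among genes called in both fits, Gm, Rik, Mir and similar names left out, on a log scale, with circles for day 14 libraries, triangles for day 21 libraries and ticks for means of 4. The days do not overlap for any of the 14 decreases and for 12 of the increases, with Lars2 and Hmgn5 as the exceptions.

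Among the 28 genes so named, 14 in each direction, 26 had CPM values that did not overlap between the days, where 33.0% of all genes tested did not overlap, 19.9% higher and 13.2% lower at day 21. Because the genes were chosen for size of change, nothing is read from that count. The decreases had GC contents of 46.5% to 58.9% and the increases of 37.4% to 51.2%. Lars2, the mitochondrial leucyl-tRNA synthetase, measured 99.8, 12.7, 13.8 and 14.5 CPM at day 14 and 1577, 354, 43.8 and 35.6 CPM at day 21. The days overlapped, and without endpoint replicate 1 its log2 fold change was 2.02 in place of 3.83 and no longer passed. Gm42418, a gene on chr17 left out of the 14 by its name, moved with it: 12400 CPM in endpoint replicate 1 and 56.3 to 316 CPM in the other day 21 libraries. Lars2 and Gm42418 were among the genes taken out in the fit without mitochondrial and structural RNA genes. Hmgn5, a nucleosome-binding protein, measured 60.2 CPM in endpoint replicate 1 and 1.31 to 5.48 CPM in the other day 21 libraries, against 0.919 to 1.93 CPM at day 14. Without that library its log2 fold change was 1.45 in place of 3.77.

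Heat shock genes rose in part. Of 18 tested, 7 rose and 0 fell without the GC adjustment, and 5 rose and 2 fell with it, where 21.4% and 15.4% of all genes rose. Hsp90aa1, the inducible Hsp90 chaperone, measured 25.04, 24.7, 31.3 and 34.9 CPM at day 14 and 197, 40.6, 140 and 182 CPM at day 21. Endpoint replicate 2 lay nearest to day 14. The log2 fold change was 2.27 ± 0.40 (SE, edgeR adjusted p = 0.000491), and 1.42 with the adjustment. Hspa1b, an inducible Hsp70 with a near-identical neighbor, which makes its counts uncertain, measured 17.2, 15.04, 23.2 and 18.6 CPM, then 31.2, 54.6, 109.5 and 44.03 CPM. Its GC content is 58.1%, and it rose by 1.69 ± 0.35 (SE) without and by 2.17 with the adjustment. Hspa4l, an Hsp110 chaperone, measured 245 CPM in endpoint replicate 3 and 27.8 to 45.3 CPM in the other day 21 libraries, above 8.90 to 11.9 CPM at day 14. Without that library its log2 fold change was 1.87 in place of 3.12. Among 24 genes of the ATF4 and unfolded protein response, 5 rose (20.8%) and 4 fell, and 2 rose and 3 fell with the GC adjustment. Hsp90b1, the chaperone of the endoplasmic reticulum, rose by 2.02 ± 0.39 (SE), and Slc7a5, an amino acid transporter, fell by 0.91 ± 0.26 (SE) and did not pass with the adjustment (-0.40).

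Chromatin regulators with long transcripts had the highest median of the 30 lists, at 1.38 against 0.04 for all genes tested, and at 0.85 against 0.07 with the GC adjustment. Of 31 tested, 23 rose (74.2%) and 0 fell, and 19 rose and 0 fell with the adjustment, where 21.4% and 15.4% of all genes rose. The list was chosen with earlier results of these data known, so its rank and counts are a description and no independent support. It holds long transcripts, and genes higher in both fits were long in general. Their median length was 5096 bases, against 3092 for all genes tested. The part of gene length in this list was not tested. Chd1, a chromatin remodeler, measured 33.3, 36.6, 38.6 and 49.7 CPM at day 14 and 196, 62.6, 171 and 165 CPM at day 21. The days did not overlap, and the log2 fold change was 1.91 ± 0.33 (SE, edgeR adjusted p = 0.000398) and 1.02 with the adjustment. Ncor1, a corepressor with a GC content of 48.5%, rose by 1.53 ± 0.27 (SE) and by 1.42 with the adjustment. Smc5, of a DNA repair complex, rose by 2.42 ± 0.45 (SE) and Brwd1, a bromodomain protein, by 1.39 ± 0.26 (SE). Malat1, a long RNA that stays in the nucleus, measured 463, 415, 381 and 528 CPM at day 14 and 4926, 1054, 4360 and 2207 CPM at day 21. It rose by 2.81 ± 0.37 (SE, edgeR adjusted p = 0.000174) and by 1.81 with the adjustment. Neat1, the scaffold RNA of paraspeckles, rose by 1.63 ± 0.32 (SE).

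**Figure D4:**
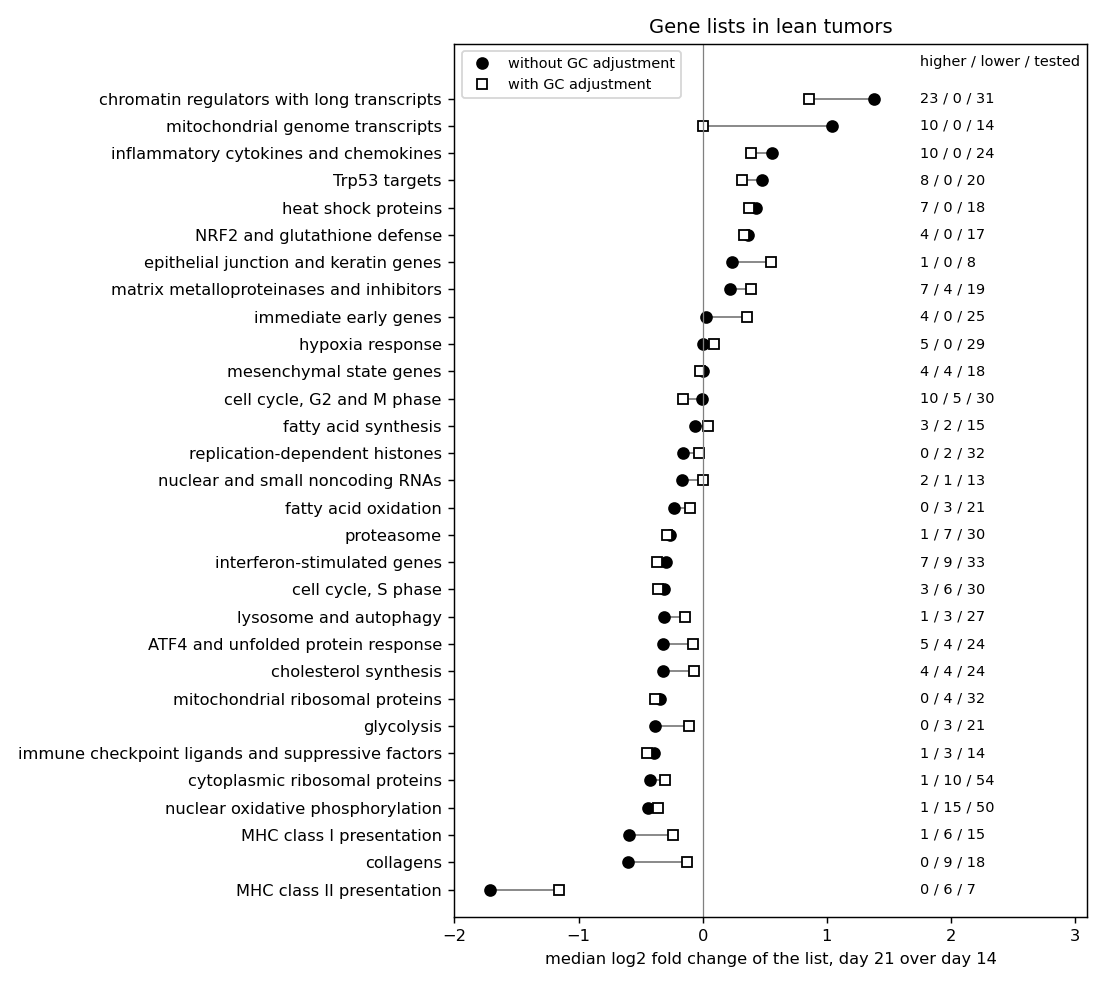
Median log2 fold change of day 21 over day 14 in 30 gene lists, with filled circles without and open squares with the GC adjustment, and at the right the numbers called higher, lower and tested without adjustment. Chromatin regulators lie highest at 1.38 and class II presentation lowest at -1.71, and the mitochondrial genome median moves from 1.04 to near 0 with the adjustment.

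Trp53 targets, tested on 20 genes, had 8 higher and 0 lower, and 5 higher and 0 lower with the GC adjustment. Rrm2b, a subunit of ribonucleotide reductase that supplies nucleotides for repair, measured 2.67, 2.53, 1.65 and 3.00 CPM, then 15.04, 4.63, 13.3 and 14.2 CPM. It rose by 2.26 ± 0.34 (SE, edgeR adjusted p = 0.000253), and by 1.03 with the adjustment. Ccng1, cyclin G1, rose by 1.92 ± 0.33 (SE). Cdkn1a, the cell cycle inhibitor p21, was not called, at 0.39. Of 30 G2 and M phase genes 10 rose (33.3%) and 5 fell (16.7%, where 9.5% of all genes fell), and with the adjustment 4 rose and 5 fell. Of 30 S phase genes 3 rose and 6 fell, and with the adjustment 1 rose and 9 fell. Kif11, a spindle motor, measured 7.76, 8.56, 5.71 and 13.5 CPM and then 36.3, 16.4, 42.9 and 56.3 CPM, and rose by 2.10 ± 0.45 (SE). Aurka, a mitotic kinase, fell by 0.85 ± 0.20 (SE), and Ccne2, cyclin E2, rose by 2.11 ± 0.39 (SE).

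Of 24 inflammatory cytokines and chemokines, 10 rose (41.7%, where 21.4% of all genes rose) and 0 fell. With the GC adjustment 5 rose and 1 fell. Ptgs2, the inducible cyclooxygenase, measured 44.7, 33.8, 56.8 and 44.1 CPM at day 14 and 201, 90.0, 201 and 122 CPM at day 21. Its log2 fold change was 1.77 ± 0.28 (SE, edgeR adjusted p = 0.000279), and 0.64 with the adjustment. Tnfaip3, which restrains NF-kB signaling, rose by 0.98 ± 0.23 (SE). Il33, an alarmin, measured 87.7, 9.72, 7.65 and 39.0 CPM at day 21 and 3.49 to 9.83 CPM at day 14. The days overlapped, and without endpoint replicate 1 the log2 fold change was 1.56 in place of 2.53. Of 25 immediate early genes, 4 rose without and 7 with the adjustment, and 0 fell. Klf4, a transcription factor with a GC content of 54.6%, measured 10.6, 9.56, 12.1 and 8.67 CPM, then 25.7, 17.4, 27.7 and 25.1 CPM, and rose by 1.23 ± 0.26 (SE) without and 1.64 with the adjustment. Klf6 rose by 2.06 ± 0.29 (SE) and Ccn1, a matricellular growth regulator, by 1.02 ± 0.21 (SE).

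Of 50 nuclear genes of the respiratory chain tested, 15 fell and 1 rose, Cycs, the electron carrier cytochrome c, by 0.79, and 18 fell and 0 rose with the GC adjustment, at medians of -0.44 and -0.36. Atp5o, a subunit of the ATP synthase, measured 96.8, 79.5, 72.4 and 123 CPM at day 14 and 39.97, 63.3, 47.2 and 53.4 CPM at day 21. It fell by 0.87 ± 0.23 (SE, edgeR adjusted p = 0.00775), and by 1.14 with the adjustment. Of 54 cytoplasmic ribosomal protein genes, whose processed pseudogenes make the counts uncertain, 10 fell and 1 rose in either fit. The fits called largely different genes, as 2 fell in both. Rpl35 fell by 0.74 ± 0.20 (SE) and was at -0.27 with the adjustment, where it did not pass. Of 32 mitochondrial ribosomal protein genes, 4 fell (12.5%) and 0 rose without the adjustment, where 9.5% of all genes fell. With it 12 fell (37.5%) and 1 rose, where 8.85% of all genes fell, and 1 gene fell in both fits. The proteasome had 7 lower (23.3%) and 1 higher of 30 genes, and 9 lower and 0 higher with the adjustment. Of these, 3 were lower in both fits. Glycolysis had 3 lower (14.3%) and 0 higher of 21, and 1 in each direction with the adjustment.

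Of 29 hypoxia genes, 5 rose (17.2%, where 21.4% of all genes rose) and 0 fell, with a median of 0.0044, and 4 rose and 3 fell with the GC adjustment. Plod2, a lysyl hydroxylase that prepares collagen for crosslinking, measured 58.8, 46.3, 68.2 and 74.4 CPM, then 408, 119, 261 and 283 CPM. It rose by 2.11 ± 0.35 (SE, edgeR adjusted p = 0.000323), and by 1.19 with the GC adjustment. Kdm3a, a histone demethylase induced by low oxygen, rose by 1.35 ± 0.27 (SE). Of 17 genes of the NRF2 and glutathione defense, 4 rose (23.5%, near the share of all genes) and 0 fell, and 4 rose and 1 fell with the adjustment. Among those that rose was Gclc, a subunit of the enzyme that limits glutathione synthesis, at 1.36 ± 0.25 (SE) and 1.17 with the adjustment. Cholesterol synthesis had 4 higher and 4 lower of 24 genes, and 2 and 4 with the adjustment, and fatty acid synthesis 3 higher and 2 lower of 15 in either fit. Hmgcs1, an early enzyme of the cholesterol pathway, rose by 1.66 ± 0.31 (SE), whereas Ebp, a later one, fell by 0.86 ± 0.20 (SE). Of 18 mesenchymal state genes, 4 rose (22.2%) and 4 fell, and 4 and 3 with the adjustment. Zeb1, a transcription factor of the mesenchymal state, measured 42.5, 42.9, 54.5 and 57.6 CPM and then 183, 94.2, 168 and 145 CPM, and rose by 1.58 ± 0.22 (SE) and by 1.13 with the adjustment. Tgfbi, a matrix protein induced by TGF-beta, measured 132, 111, 105 and 149 CPM and then 40.8, 40.2, 35.1 and 54.8 CPM, and fell by 1.54 ± 0.21 (SE).

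The day 21 libraries were not alike in how far they had moved. Among the 2111 genes higher in both fits, endpoint replicate 2 was the lowest of the 4 day 21 libraries for 1834, or 86.9%, and for 78.4% on GC-adjusted CPM. Among the 625 lower genes it was the highest for 418, or 66.9%, and for 56.8% on GC-adjusted CPM. Endpoint replicate 3 lay nearest to day 14 least often, for 2.23% of the higher and 2.72% of the lower genes. The genes were chosen for their difference between the days, so these shares describe the order of the libraries within day 21 only.

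The same days were compared in obese mice, in the fit without the GC adjustment. Obese calls with the adjustment are not given here, so the overlap below does not show how far they depend on GC content. There 12091 of 16352 genes were called (73.9%), 6183 higher (37.8%) and 5908 lower (36.1%). Of the 2111 genes higher in both lean fits, 2051 were called higher and 0 lower in obese tumors, and of the 625 lower genes 566 were called lower and 2 higher. Dcn had a log2 fold change of 5.29 in obese beside 3.96 in lean tumors, Ereg 4.40 beside 3.18, and H2-Aa -2.14 beside -1.99. The difference of the day effect, tested as obese minus lean, was called for 0 of 16352 genes by edgeR (0.0%), while at an unadjusted p under 0.05 there were 5451 (33.3%). With DESeq2 the count was 1557 and with limma-voom 5119, so the count depended on the tool. Col6a4 was at 0.03 in obese and -2.02 in lean tumors, and Lars2 at -0.23 and 3.83, each with an adjusted p of 0.0983 for the difference by edgeR's quasi-likelihood test.

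**Figure D5:**
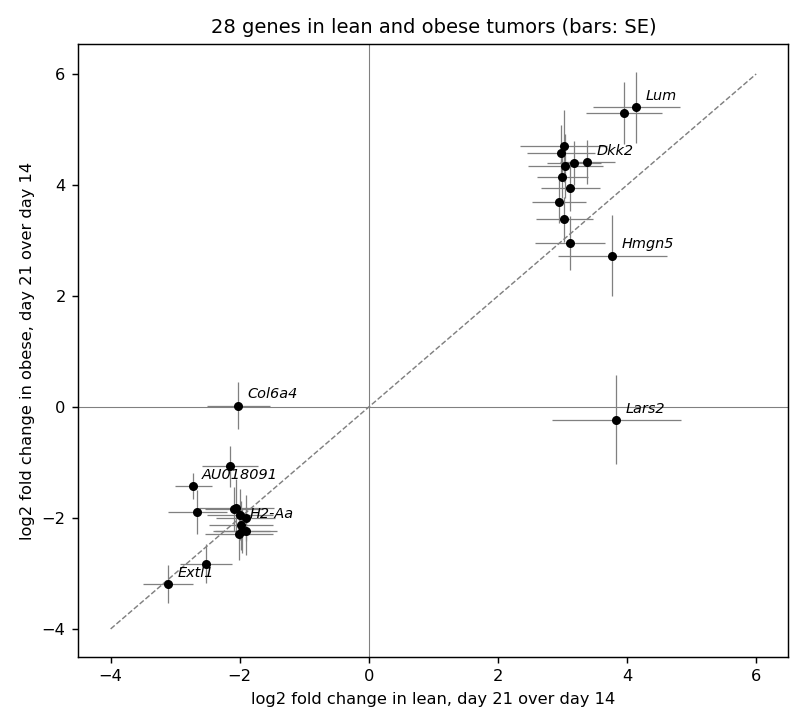
Log2 fold change of day 21 over day 14 in lean tumors (horizontal) and obese tumors (vertical) for the 28 genes named for their lean changes, with bars for SE and a dashed line where both are equal. Apart from Col6a4 at 0.03 and Lars2 at -0.23 in obese tumors, the genes were called in the same direction in both. The values plotted are without the GC adjustment.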

How the data were processed

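RNA-seq of sorted tumor cells was used in the unit the authors deposited, raw counts (whole numbers, 39017 genes in 19 libraries). TopHat, DESeq and mm10 are named in the submitters' processing notes; the counting tool, its strand setting and the annotation release are not stated in the sources used here, so overlapping, antisense and near-identical genes are uncertain. Symbols and the GC content of the longest transcript came from GENCODE M21 (37607 identifiers matched). Length was the gene length in bases that the authors deposited with the counts. The counts were tested here with edgeR 4.0.16 in R 4.3.3: TMM scaling, filterByExpr (16352 genes), a mean per group over 18 libraries, the quasi-likelihood test and Benjamini-Hochberg adjustment at 0.05. Standard errors were the absolute log2 fold change over the root of F. The GC adjustment was an offset per library from a spline with 5 degrees of freedom (16122 genes). Scripts were tested on simulated data. Members and the 44 gene lists were chosen with earlier results of these data known. Named genes were the 14 largest changes per direction called in both fits with a mean of at least 1 CPM, leaving out Gm, Rik, LOC, Mir, Snor, pseudogene and identifier-only names, up to 4 members of smallest p per list, and Tmem167, called in opposite directions. Cdkn1a, Ciita, Mrc1, Clec9a, Plin1, Esr1, Erbb2, Cycs, Col3a1, Col5a3, Gm42418, Gm24187 and Mir6236 were named after their values were seen. By chi-square, no pair of libraries of the same group was a repeat.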

Additional observations from a re-analysis of the deposited data

Results flagged for a closer look

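A total of 10 values stood far from the other 3 libraries of their day by Dixon's test, among 76 groups of 4 examined; chance alone gives about 1 in 20 groups. In endpoint libraries these were Sh3bp4 at 1.503 CPM in replicate 5 (others 0.646 to 0.725 CPM), Islr at 7.317 CPM in replicate 2 (others 1.92 to 2.50 CPM), Hmgn5 at 60.24 CPM in replicate 1, Hspa4l at 245.2 CPM in replicate 3 and Tmem167, a Golgi membrane protein, at 22.35 CPM in replicate 2 (others 39.1 to 42.4 CPM). In midpoint libraries they were Lars2 at 99.84 CPM in replicate 1 (others 12.7 to 14.5 CPM), and 4 values in replicate 4. Those were Col6a4 at 3.646 CPM (others 1.12 to 1.26 CPM), H2-Aa at 18.06 CPM (others 25.2 to 26.3 CPM), the summed macrophage and monocyte markers at 298.4 CPM (others 615.5 to 647 CPM) and the summed endothelial markers at 21.18 CPM (others 23.8 to 24.2 CPM).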

How the results depend on the processing

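The number of genes called in lean tumors was 5053 (1554 lower), 6116 with DESeq2 (2410 lower), 7315 with limma-voom (2940 lower) and 530 with all 19 libraries, and 1627 of 4269 on chromosomes 1 to 4 with all 19; the zeros of the added library and the smaller set of genes belong to how these fits were made. Leaving out each lean library in turn gave 3251 to 6388 genes, 2523 to 4324 with the GC adjustment, and 0 to 0 for the difference between obese and lean. For that difference DESeq2 gave 1557 and limma-voom, there added after the data had been seen, 5119; the cause was not tested. With the replicate number as a block (replicate block) the counts were 3727 (2872 higher, 855 lower), 2972 with the GC offset and 0 for the difference. Same-numbered libraries did not deviate together (r = -0.145, -0.155 and -0.0415). These values were not set beside those of differently numbered libraries, so they cannot decide whether the numbers pair the samples. Higher genes were 69.2% of calls, and 59.2% with at least 5 CPM in 4 libraries; with the GC adjustment they were 63.6%, then 55.1% under that filter and 53.7% with the lean libraries alone. Tmem167 went from 0.70 to -0.43 with the GC offset and -0.70 with GC and length, and Psmc3, a proteasome subunit, from -0.47 to 0.0491 with GC and length; the cause was not tested. Of the 28 genes named for their change, 20 were lost with all 19 libraries.

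Leaving out each library moved the endpoint minus midpoint difference of the GC slope between -0.987 and -0.717, the mitochondrial share between 9.92 and 19.1 points, the 7SK share between -1.13 and -0.666 points, and genes detected between 7.25 and 397. Summed CPM moved between -272.6 and -156.4 (macrophage), -355.6 and -189.3 (pan-leukocyte), -493.7 and -126.3 (fibroblast), -9.58 and -8.40 (endothelial) and -0.133 and 0.700 (erythroid).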

Other observations

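Other transcripts not described above also differed between the days in lean tumors. Tsga10, a sperm tail protein, measured 0.168 to 0.453 CPM at day 14 and 0.788 to 3.28 CPM at day 21, and Mblac2, a metallo-beta-lactamase domain protein, 0.949 to 1.95 CPM and 4.63 to 15.6 CPM. Arsi, a sulfatase, measured 2.34 to 5.54 CPM and then 0.424 to 1.21 CPM, Inpp5j, a phosphoinositide phosphatase, 1.44 to 2.27 CPM and then 0.252 to 0.625 CPM, and Slco2b1, an organic anion transporter, 10.6 to 17.5 CPM and then 1.62 to 7.02 CPM. By edgeR's quasi-likelihood test these fell by 2.53, 2.01 and 1.97 on the log2 scale, and Tsga10 and Mblac2 rose by 3.04 and 3.02.

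In the remaining gene lists, of 27 lysosome and autophagy genes 3 fell and 1 rose (4 and 1 with the GC adjustment), of 21 fatty acid oxidation genes 3 fell and 0 rose (5 and 0), and of 32 replication-dependent histone genes, whose copies make the counts uncertain, 2 fell and 0 rose (2 and 1), against 29 that fell in obese tumors. That obese count was taken without the adjustment. The shares that fell in lean tumors without the adjustment were 11.1%, 14.3% and 6.25%, where 9.5% of all genes fell. Of 14 immune checkpoint ligands and suppressive factors 3 fell and 1 rose in either fit, but in both fits 1 fell and 1 rose. Cd276 fell by 0.82 on the log2 scale and did not pass with the adjustment (-0.35). Of 8 epithelial junction and keratin genes 1 rose in either fit, Tjp1 of the tight junction, by 1.18. Among markers, 1 of 5 neutrophil genes rose and 0 with the adjustment. Of 6 NK cell genes 1 fell and 3 with it, and 0 fell in both fits. In either fit 1 of 4 B cell genes fell, 0 of 4 pericyte genes were called by edgeR and 1 of 6 erythroid genes rose. The summed neutrophil markers were 21.7 to 49.4 CPM at day 14 and 45.5 to 93.01 CPM at day 21, and Ms4a1, a B cell marker, was at 0 in every lean library.

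On GC-adjusted CPM, the days did not overlap for 12 of the 14 decreases and 12 of the 14 increases named for their size. The 4 that did overlap were Col1a2, Cd74, Lars2 and Hmgn5.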
